A study of Mus musculus with 18 samples.

Results

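Histone H3 lysine 27 trimethylation (H3K27me3) was examined at 10 glial genes of the 20665 autosomal protein-coding genes measured. They were Olig1, Olig2, Sox10, Pdgfra and Cspg4 of the oligodendrocyte lineage, Mbp of myelin, Sox9 and Nfia as regulators of gliogenesis, and Gfap and Aqp4 of astrocytes. A gene was counted in a library when an interval of that library's deposited list overlapped its gene body or the 2.5 kb on either side. The lists come from bulk CUT&Tag, in which an antibody against the mark tethers a transposase that tags nearby DNA, on the embryonic mouse medial ganglionic eminence (MGE), taken at E12.5 and E15.5. Each stage had 3 wild-type (WT) and 3 Ezh2 knockout (KO) libraries, so 12 in all, and the 6 heterozygous samples among the series' 18 were not analysed here. The study asked how the mark is distributed when Ezh2, the methyltransferase that places it, is deleted in the MGE.

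The KO is written Nkx2.1-CreC/+;Ezh2;Ai9F/+ in the labels, and the embryos came from Nkx2.1-CreC/C;Ezh2F/+ males and Ai9F/F;Ezh2F/+ females, so by this cross WT littermates carry the Cre and the Ai9 reporter too. The Cre acts in the Nkx2-1 lineage, and cells of other origin in a dissected piece keep Ezh2. MGEs of 1 genotype were combined where several embryos had it, and no label says whether replicates came from separate litters. If they did not, p-values measure only the spread between these libraries. The whole MGE was taken at E12.5 and only the fluorescent (Tom+) MGE at E15.5, so stage and dissection cannot be told apart. In such bulk material, fewer marked cells and less mark per cell cannot be told apart either.

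H3K27me3 is laid down by Polycomb repressive complex 2 and is typical of developmental genes that a cell does not transcribe. OLIG2 and OLIG1 are basic helix-loop-helix factors that specify oligodendrocyte precursors, and the ventral telencephalon, including the MGE, gives rise to an early wave of these cells. Neurogenesis in this tissue comes before gliogenesis, and the NFI factors with SOX9 are known for starting the astrocyte programme.

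The total count in intervals ranged from 573838 to 6846250 per library, in 5008 to 13289 intervals. Depth, taken as the mean count per 200 bp window recovered from the deposited scores, was least in E15.5 WT replicate 1, at 0.0751, and greatest in E12.5 WT replicate 2, at 0.698. A normalised count is a count divided by its library's depth and multiplied by 0.26, the average depth. The median gene still differed between libraries after this scaling, from 7.22 (E12.5 KO replicate 1) to 8.64 (E12.5 WT replicate 2) on the log2 scale. For that reason differences are also given with TMM factors, which align libraries on their common genes. Changes with TMM factors, or with DESeq2, which scales libraries likewise, are relative to most other genes. A shift shared by most genes would not show in them. Ezh2 had an interval in 0 of the 12 libraries, so the lists do not show the deletion. All 6 MGE markers (Nkx2-1, Lhx6, Lhx8, Dlx1, Dlx2, Sp8) and all 4 dorsal pallium markers carried an interval in 12 of 12 libraries, against 12.1% of all genes. Of the 7 housekeeping genes measured, 6 had none in any library, as did 4 of 6 microglial, 2 of 5 endothelial and 2 of 5 neuronal markers. Over all genes 61.2% had none.

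RefSeq promoters (build GRCm38.p6) were matched for 5 of the 10 genes. Those of Olig2, Pdgfra, Gfap and Nfia are printed because they show the range of CpG content among the matched entries. Each line gives the 250 bases before the annotated start, 5′ to 3′, with CpG dinucleotides in capitals.
Olig2, chr16:91225300-91225549 (+ strand): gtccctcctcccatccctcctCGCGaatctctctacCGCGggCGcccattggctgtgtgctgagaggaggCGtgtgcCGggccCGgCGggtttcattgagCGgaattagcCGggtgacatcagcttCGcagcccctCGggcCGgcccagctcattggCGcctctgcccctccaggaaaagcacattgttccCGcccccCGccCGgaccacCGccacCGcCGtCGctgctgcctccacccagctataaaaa
Pdgfra, chr5:75152001-75152250 (+ strand): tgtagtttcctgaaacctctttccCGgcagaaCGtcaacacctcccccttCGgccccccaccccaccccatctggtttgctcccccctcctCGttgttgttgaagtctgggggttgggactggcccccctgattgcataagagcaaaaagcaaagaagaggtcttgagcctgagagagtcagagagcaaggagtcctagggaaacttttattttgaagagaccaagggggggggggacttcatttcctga
Gfap, chr11:102897201-102897450 (- strand): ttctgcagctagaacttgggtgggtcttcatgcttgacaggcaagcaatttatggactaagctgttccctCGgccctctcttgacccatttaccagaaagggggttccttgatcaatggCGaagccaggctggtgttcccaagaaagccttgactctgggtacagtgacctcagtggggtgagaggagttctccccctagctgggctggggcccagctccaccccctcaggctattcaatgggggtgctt
Nfia, chr4:97581693-97581942 (+ strand): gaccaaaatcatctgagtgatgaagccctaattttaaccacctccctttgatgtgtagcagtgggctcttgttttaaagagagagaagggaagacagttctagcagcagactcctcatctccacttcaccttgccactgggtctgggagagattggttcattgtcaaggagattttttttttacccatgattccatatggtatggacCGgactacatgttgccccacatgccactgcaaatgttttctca
Olig2 had 25 CpG in the 300 bases of its table entry, which reach 50 bases past the start, an observed over expected CpG ratio of 0.815 and an interval over the promoter in 12 of 12 libraries. Cspg4 had 17 CpG, a ratio of 0.631 and an interval over the promoter in 9 libraries. Pdgfra was also covered in 12 of 12 libraries, with 5 CpG and a ratio of 0.256. Gfap had 3 CpG, a ratio of 0.129 and a covered promoter in 4 libraries, of which 2 were E12.5 WT. Nfia had 2 CpG, a ratio of 0.134 and no interval over this promoter in any library. The RefSeq entry for Nfia starts 3.88 kb above the lower end of the annotated gene, and other starts of the gene were not examined. Among 16457 genes with a promoter entry, split by CpG ratio into low, middle and high sets of equal size, the promoter was covered in all 12 libraries in 2.02% of the low set (ratio up to 0.328), 11.6% of the middle set and 7.98% of the high set. By the ratio of the matched entry, Pdgfra, Gfap and Nfia fell in the low set, Cspg4 in the middle set and Olig2 in the high set.

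H3K27me3 intervals were present at 6 of the 10 glial genes in all 12 libraries: Olig1, Olig2, Sox10, Pdgfra, Nfia and Gfap. Over all genes, 12.1% had an interval in all 12 libraries, 38.8% in at least 1 and 61.2% in none. Cspg4 had an interval in 10 libraries, Mbp and Sox9 in 9 each, and Aqp4 in none. Aqp4 (chromosome 18, 15389394 to 15410982) encodes the astrocyte water channel.

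**Figure D1:**
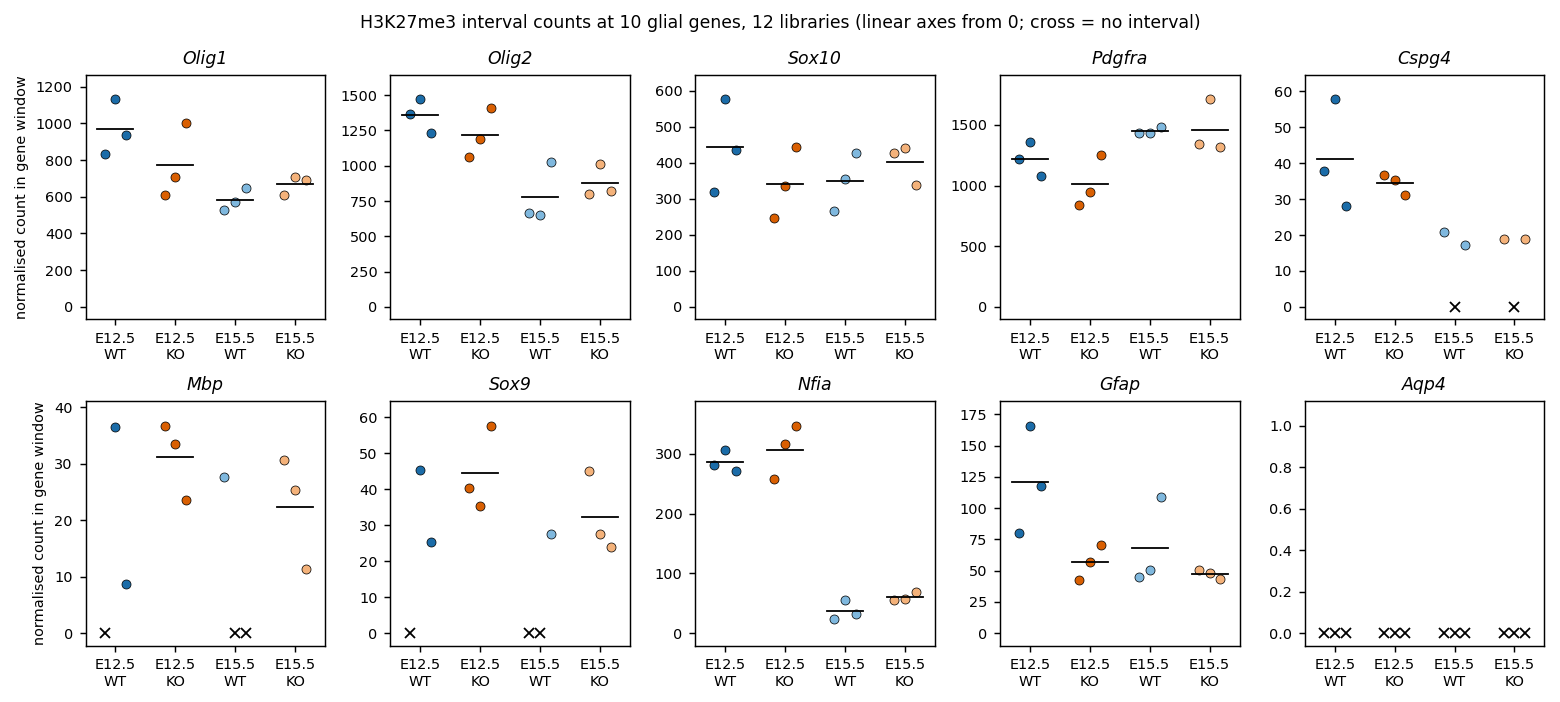
Normalised count in the gene window (vertical axis, linear) of each of the 10 glial genes in the 12 libraries, by stage and genotype. Points are libraries, bars are means of groups in which all 3 libraries had an interval, and crosses mark libraries with no interval. Nfia lay between 258 and 347 at E12.5 and between 24.2 and 69.2 at E15.5, and Aqp4 had no interval anywhere.

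Olig1 and Olig2, the paired lineage factors, lie 41.1 kb apart on chromosome 16 (91269769 to 91271939 and 91225550 to 91228677) and were covered by separate intervals of 7.6 to 27.4 kb and 17.0 to 23.2 kb. The whole window of Olig2, 8.13 kb, was covered in every library, and at Olig1 7.15 of 7.17 kb was covered on average in WT and all of it in KO. At E12.5 the normalised count at Olig2 was 1370, 1470 and 1230 for WT against 1060, 1190 and 1410 for KO. At E15.5 it was 664, 649 and 1030 for WT against 803, 1010 and 820 for KO. All 6 E15.5 libraries were below all 6 E12.5 libraries, and the genotypes overlapped at both stages. Between stages within a genotype, 52.0% of all genes tested in WT and 12.4% in KO were lower at E15.5 without overlap. Olig1 had 833, 1130 and 936 for WT against 610, 710 and 1000 for KO at E12.5, and 529, 569 and 650 for WT against 607, 706 and 691 for KO at E15.5. The stages separated in WT and overlapped in KO.

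Sox10, which drives oligodendrocyte precursor and myelin genes, lies on chromosome 15 (79154913 to 79164490). Its intervals were 1.2 to 20.6 kb wide and reached the neighbour Polr2f, so counts there cannot be split between the genes. The mean normalised count (± SD, n = 3) at E12.5 was 444 ± 129 for WT against 341 ± 98.8 for KO. At E15.5 it was 350 ± 81.1 for WT against 402 ± 55.0 for KO. All 4 groups overlapped.

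Pdgfra encodes the receptor for the platelet-derived growth factor that drives division of oligodendrocyte precursors. The gene spans 75151322 to 75198206 on chromosome 5, and its intervals lay between 75142001 and 75161400, over the start of the gene and the sequence before it. Normalised counts at E12.5 were 1220, 1360 and 1080 for WT against 839, 949 and 1250 for KO. At E15.5 they were 1430, 1430 and 1480 for WT against 1340, 1710 and 1320 for KO. Within each genotype every E15.5 library was above every E12.5 library, the opposite order to Olig2, and an order that 3.93% of genes tested in WT and 11.4% in KO had.

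Cspg4 encodes the NG2 proteoglycan of oligodendrocyte precursors and pericytes (chromosome 9, 56865104 to 56899870), and its intervals of 1.6 to 6.6 kb reached Odf3l1. Its mean normalised count (± SD, n = 3) at E12.5 was 41.2 ± 15.1 for WT against 34.3 ± 3.00 for KO. At E15.5 it was 20.8 and 17.3 in 2 WT libraries and 18.9 and 18.8 in 2 KO libraries, and WT replicate 2 and KO replicate 2 had no interval. The interval of E15.5 KO replicate 1 (18.9) lay 14.5 to 19.7 kb inside the gene, while those of the other 9 libraries lay over its start. Because of the missing intervals Cspg4 could not be tested between stages in either genotype.

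Mbp, a structural protein of compact myelin, and Sox9, a factor of neural stem cells and glia, showed the same pattern of presence. Each had an interval in 2 of 3 E12.5 WT, 3 of 3 E12.5 KO, 1 of 3 E15.5 WT and 3 of 3 E15.5 KO libraries. An interval in all 6 KO libraries and at most 3 WT libraries occurred at 61 genes, 0.295% of those measured. At Sox9 (chromosome 11, 112782210 to 112787757) the normalised counts were 45.4 and 25.4 for WT against 40.4, 35.3 and 57.7 for KO at E12.5, and 27.7 for WT against 45.1, 27.7 and 24.1 for KO at E15.5. The WT values, where an interval was called, overlapped the KO range at both stages. At Mbp (chromosome 18, 82475091 to 82585637) they were 36.5 and 8.65 for WT against 36.7, 33.4 and 23.5 for KO at E12.5, and 27.7 for WT against 30.6, 25.3 and 11.3 for KO at E15.5. These Mbp values are not all from the same site. The single interval of E12.5 WT replicate 3 (8.65) lay within 84.1 to 88.3 kb from the lower end of the annotated gene. So did 1 of the 2 in E12.5 WT replicate 2, with 52 of its 98 counts. The intervals of all 6 KO libraries lay over that lower end, where 2 of 6 WT libraries had an interval. Other starts of Mbp were not examined, so neither site was placed against a start in use.

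The libraries with no interval at all at Sox9 or Mbp were shallow ones, with depths of 0.0751 to 0.15. E12.5 WT replicate 3, which had no interval at the lower end of Mbp, had a depth of 0.481. At the level of the other libraries of the same stage, Sox9 would have given 9.01 to 18.4 counts in the 3 libraries without an interval (E12.5 WT replicate 1 and E15.5 WT replicates 1 and 2). Mbp would have given 11.8 to 13.7 counts in its 3 (E12.5 WT replicate 1 and E15.5 WT replicates 2 and 3). The smallest interval called in those lists held 5 to 7 counts. Cspg4 would have given 9.43 counts in E15.5 WT replicate 2 and 15.7 in E15.5 KO replicate 2, where the smallest intervals held 7 and 10. These levels are means over only the libraries with an interval, 4 or 5 per gene and stage, so values too low to be called did not enter them. At E12.5 those for Mbp include the site 84.1 to 88.3 kb from the lower end of the annotated gene. The smallest interval of a list need not be as wide as the intervals at these genes. The part of depth in these absences was not tested. With every list cut to its 5008 highest-scoring intervals, Cspg4 was present in 8 libraries, Sox9 in 7 and Mbp in 5, while the 6 genes present throughout had an interval in 12 of 12. In the part of each list that scored above its median, Nfia had an interval in 10 libraries, with 1 of 3 in E15.5 WT.

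**Figure D2:**
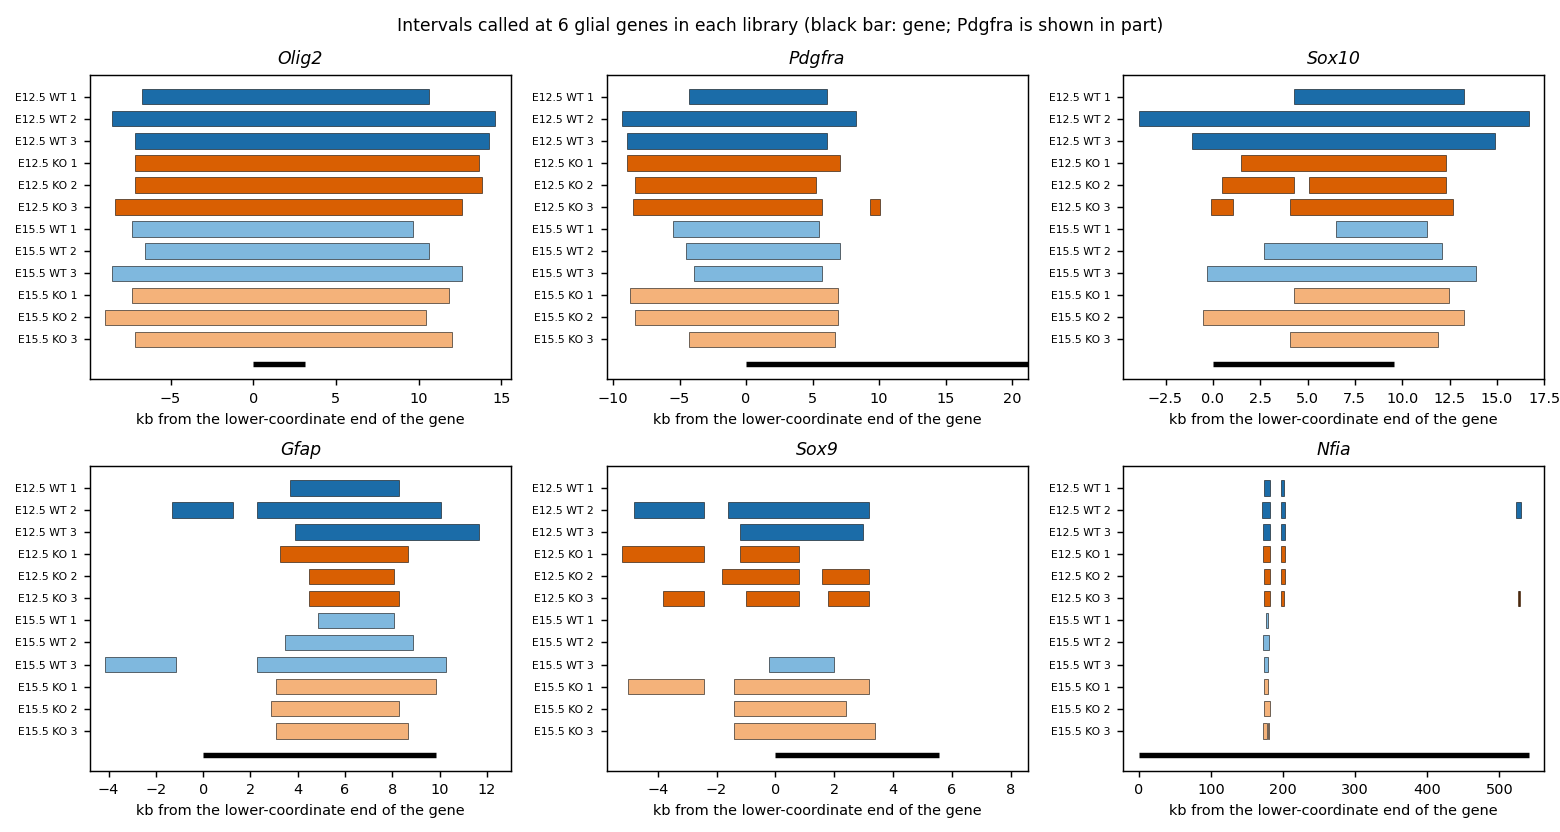
Intervals at 6 glial genes in the 12 libraries (rows), in kb from the lower-coordinate end of the gene, with the gene as a black bar (Pdgfra in part). Olig2 was filled in every library, 3 libraries had no interval at Sox9, and at Nfia the block at 197 to 203 kb was present in the E12.5 libraries only.

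Nfia, a nuclear factor I protein that starts astrocyte gene expression, spans 97578066 to 98118876 on chromosome 4. Its intervals lay inside the annotated span, in 3 blocks at 171 to 182 kb, 197 to 203 kb and 524 to 530 kb from the span's lower end. Other starts of the gene were not examined, so the distance of the blocks from a start in use is not known. Whether the blocks are exonic or intronic is not in the gene table used here. The first block was called in 12 of 12 libraries, 8.6 to 10.8 kb wide in E12.5 WT and 2.0 to 8.4 kb wide in E15.5 WT. The second was called in all 6 E12.5 libraries, with normalised counts from 48.7 to 68.4, and in 0 of 6 at E15.5. The third was called in E12.5 WT replicate 2 and E12.5 KO replicate 3 only. Over the whole gene the normalised count at E12.5 was 281, 307 and 271 for WT against 258, 316 and 347 for KO. At E15.5 it was 24.2, 56.3 and 32.9 for WT against 55.3, 56.6 and 69.2 for KO. The stages were far apart in both genotypes. Between genotypes, E15.5 WT replicate 2 overlapped the KO range.

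Gfap, the intermediate filament of astrocytes, lies on chromosome 11 (102887336 to 102897200), and its intervals also overlapped the windows of Ccdc103, Eftud2 and Fam187a. Its normalised count at E12.5 was 79.8, 166 and 118 for WT against 42.9, 57.3 and 70.5 for KO. At E15.5 it was 45.0, 50.2 and 109 for WT against 50.9, 48.2 and 43.6 for KO. At E12.5 every KO library was below every WT library, as was so for 33.0% of the 3140 genes tested, and at E15.5 the genotypes overlapped.

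Per kb of interval, which allows genes to be compared, the mean normalised count (± SD, n = 3) in KO at E12.5, where all 9 genes had an interval in each library, was 68.6 ± 15.6 at Pdgfra, 60.5 ± 29.3 at Olig1 and 58.3 ± 8.31 at Olig2, which did not differ beyond their spread. Sox10 followed with 32.8 ± 11.4 and Nfia with 20.4 ± 3.96. Gfap (14.1 ± 5.54), Cspg4 (12.1 ± 6.36), Sox9 (9.78 ± 2.36) and Mbp (8.43 ± 1.20) lay within each other's spread. At E15.5 Pdgfra stood highest, at 106 ± 17.7 in KO and 136 ± 15.9 in WT, and Olig2 had 45.5 ± 5.65 and 41.8 ± 5.93. Nfia had 9.50 ± 2.60 in KO and 8.23 ± 3.38 in WT, against 17.3 ± 4.64 in WT at the earlier stage. Nfia thus had a lower count per kb of interval at E15.5 as well as narrower intervals.

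From E12.5 to E15.5, the mark at Nfia fell in both genotypes. In WT, Nfia was lower by 7.36-fold, a log2 change of -2.88 (SE 0.32, edgeR quasi-likelihood test, adjusted p = 0.00442), and in KO by 5.06-fold, -2.34 (SE 0.34, edgeR adjusted p = 1.11e-06). It ranked 32 from the lowest of 2624 genes tested in WT and 17 of 3003 in KO. The WT and KO comparisons share no library. With TMM factors the changes were -2.41 (edgeR adjusted p = 0.00379) and -2.32 (edgeR adjusted p = 0.000187). The difference between the genotypes in this change was 0.54 (SE 0.39, edgeR adjusted p = 0.317). The call held in both genotypes under each of the 13 alternatives, with changes of -3.29 to -2.32 in WT and -2.45 to -1.98 in KO. The second block, not called at E15.5, enters these sums as 0. Before scaling, the E15.5 sums were 7, 28 and 19 counts in WT and 38, 47 and 92 in KO. The smallest intervals called in those WT lists held 5, 7 and 7 counts, so the size of the WT fold rests on low counts. In the first block alone, called in every library, the normalised counts were 217 to 233 for WT and 207 to 261 for KO at E12.5, against 24.2 to 56.3 and 55.3 to 69.2 at E15.5.

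**Figure D3:**
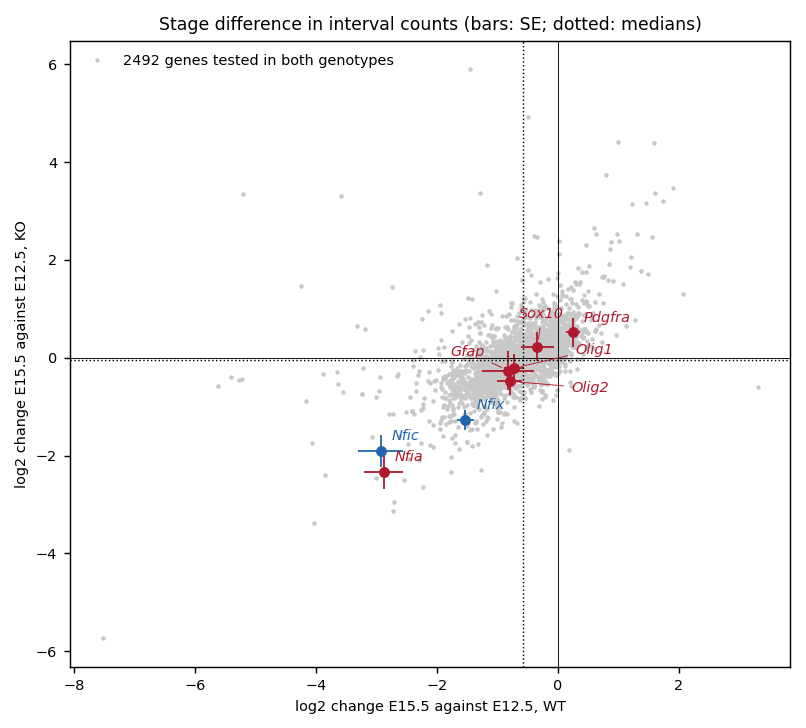
Log2 change in normalised count from E12.5 to E15.5 in WT (horizontal) against KO (vertical) for the 2492 genes tested in both (grey), with the 6 glial genes tested in both in red and Nfic and Nfix in blue. Bars are SE and dotted lines the medians, -0.58 in WT and -0.05 in KO. Nfia, at -2.88 and -2.34, lay near the lower left edge and Pdgfra, at 0.25 and 0.52, to the right of the WT median and above the KO median.

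In WT 3 of the 6 glial genes tested were lower at E15.5, Nfia, Olig1 and Olig2, and none was higher, while 35.8% of the 2624 genes tested were lower and 1.71% higher. The median of the 6 was -0.76, against -0.58 for all genes. Olig1 fell by 0.73 on the log2 scale (SE 0.16, edgeR adjusted p = 0.0179) and Olig2 by 0.80 (SE 0.21, edgeR adjusted p = 0.0261). Both are close to the median gene, since they ranked 1062 and 949 from the lowest, and with TMM factors the changes were -0.25 (edgeR adjusted p = 0.0623) and -0.35 (edgeR adjusted p = 0.186). Pdgfra changed by 0.25 (SE 0.12, edgeR adjusted p = 0.141), which was 0.83 above the median, and by 0.72 with TMM factors (edgeR adjusted p = 0.0105). Sox10 changed by -0.34 (SE 0.27, edgeR adjusted p = 0.335) and Gfap by -0.82 (SE 0.43, edgeR adjusted p = 0.16). On simulated counts this comparison recovered 16.5% of 2-fold changes, so a 2-fold difference at a single gene would mostly have been missed. TMM factors moved the median to -0.10, and with them 449 genes (17.1%) were lower and 271 (10.3%) higher, against 939 and 45 with depth scaling and 382 and 373 with DESeq2.

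Without E15.5 WT replicate 1, E15.5 WT replicate 2 or E12.5 WT replicate 3 the calls of Olig1 and Olig2 were lost (edgeR adjusted p from 0.0588 to 0.103), as was that of Olig2 without E12.5 WT replicate 2 (edgeR adjusted p = 0.0622). The genes called numbered 984 with all libraries and 200, 85, 241 and 612 without each of these 4.

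In KO 1 of the 8 glial genes tested was lower, Nfia, against 5.49% of 3003 genes lower and 4.13% higher. The median of the 8 was -0.37, and that of all genes -0.05. Olig2 changed by -0.48 (SE 0.29, edgeR adjusted p = 0.38) and Pdgfra by 0.52 (SE 0.29, edgeR adjusted p = 0.321) with depth scaling. With TMM factors the same values passed the test, at -0.48 (edgeR adjusted p = 0.0402) and 0.53 (edgeR adjusted p = 0.0262), when 7.69% of all genes were lower and 8.82% higher. Olig1, Sox10, Gfap, Sox9 and Mbp changed by -0.21, 0.23, -0.26, -0.48 and -0.52, with edgeR adjusted p from 0.565 to 0.773. The stage comparison in KO recovered 13% of 2-fold changes on simulated counts, so most such differences would have been missed. The genes called numbered 289, and 190 and 174 without E15.5 KO replicates 2 and 3.

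Nfic and Nfix, other nuclear factor I genes taken from a list of 18 gliogenic regulators, fell from E12.5 to E15.5 too. Nfic had mean counts (± SD, n = 3) of 449 ± 153 for WT against 396 ± 115 for KO at E12.5, and 58.5 ± 18.1 for WT against 106 ± 11.7 for KO at E15.5. Its intervals also overlapped the windows of Dohh, Gm48552 and Smim24, so these counts cannot be split between the genes. It fell by 2.93 in WT (SE 0.37, edgeR adjusted p = 0.00632) and by 1.91 in KO (SE 0.33, edgeR adjusted p = 3.07e-05). Nfix lies in a domain of up to 125.2 kb that it shares with Dand5, Lyl1 and Trmt1, and fell by 1.53 in WT (SE 0.14, edgeR adjusted p = 0.00287) and by 1.27 in KO (SE 0.20, edgeR adjusted p = 7.2e-06). Nfib had an interval in 10 libraries. It had none in E15.5 WT replicates 1 and 2, so only KO could be tested, where Nfib changed by -1.08 (SE 0.42, edgeR adjusted p = 0.107). The calls of Nfic and Nfix held under each of the 13 alternatives in both genotypes.

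Of the 18 gliogenic regulators, 8 could be tested in WT, and 5 were lower at E15.5 (Nfic, Nfix, Notch1, Hes1 and Egfr), against 35.8% of all genes tested, and 0 higher, with a median of -1.15 against -0.58 for all genes. With TMM factors 3 were lower, against 17.1% of all genes. Egfr, a growth factor receptor, fell by 1.10 in WT (edgeR adjusted p = 0.0238) and passed with TMM factors at -0.61 (edgeR adjusted p = 0.0339). Hes1, a Notch effector, fell by 0.67 in WT (edgeR adjusted p = 0.043), which was lost with TMM factors at -0.20 (edgeR adjusted p = 0.301). In KO Egfr changed by 0.10 and Hes1 by 0.40 (edgeR adjusted p = 0.936 and 0.547). The call of Notch1, a receptor that maintains progenitors, at -1.30 in WT (edgeR adjusted p = 0.0457), was lost with TMM factors (-0.82, edgeR adjusted p = 0.117), with DESeq2 (DESeq2 adjusted p = 0.121), with prorated counts and an interval in most libraries (edgeR adjusted p = 0.0616 and 0.109), and without E12.5 WT replicates 2 or 3 or E15.5 WT replicates 1 or 2 (edgeR adjusted p from 0.0997 to 0.143). In KO Notch1 changed by -0.23 (edgeR adjusted p = 0.82).

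In KO 12 gliogenic regulators could be tested and 3 were lower, Nfic, Nfix and Hes5, against 5.49% of all genes, with a median of -0.28 against -0.05. Hes5, another Notch effector, whose intervals reached Pank4, fell by 1.32 (edgeR adjusted p = 0.0158) and could not be tested in WT. Its call was lost with prorated counts (-0.91, edgeR adjusted p = 0.155), an interval in most libraries (edgeR adjusted p = 0.0801) and the replicate block (edgeR adjusted p = 0.0727), and without E12.5 KO replicate 1, E15.5 KO replicate 2 or E15.5 KO replicate 3 (edgeR adjusted p from 0.0943 to 0.137).

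Among astrocyte and radial glia genes, 4 of 16 could be tested in WT, where 2 were lower and 1 higher, and 7 in KO, where 2 were lower and 1 higher. Over all genes 35.8% were lower and 1.71% higher in WT, and 5.49% and 4.13% in KO. Fgfr3, a growth factor receptor of glial progenitors, fell by 2.07 in WT (edgeR adjusted p = 0.0218) and by 1.83 in KO (edgeR adjusted p = 7.95e-05). Gjb6, a gap junction protein of astrocytes, fell by 1.73 in WT (edgeR adjusted p = 0.0154) and changed by -0.42 in KO (edgeR adjusted p = 0.616). Sox2 fell by 1.22 in KO (edgeR adjusted p = 0.0482) and could not be tested in WT. Id3, an inhibitor of basic helix-loop-helix factors, rose by 0.74 in WT (edgeR adjusted p = 0.0225) and by 1.13 in KO (edgeR adjusted p = 0.00728). The list medians were -0.87 in WT and -0.05 in KO. The WT calls of Fgfr3, Gjb6 and Id3 were each lost without E12.5 WT replicate 3, E15.5 WT replicate 1 or E15.5 WT replicate 2 (edgeR adjusted p from 0.0555 to 0.0922), and that of Fgfr3 with an interval in most libraries (edgeR adjusted p = 0.0516). In KO Fgfr3 passed under each of the 13 alternatives, and Id3 was lost with an interval in most libraries (edgeR adjusted p = 0.0876) and without E15.5 KO replicate 2 (edgeR adjusted p = 0.0657). Sox2 was lost under each alternative that kept all libraries (edgeR adjusted p from 0.0592 to 0.301, DESeq2 adjusted p = 0.189) and without each of 4 libraries (E12.5 KO replicates 1 and 3 and E15.5 KO replicates 2 and 3, edgeR adjusted p from 0.0926 to 0.531).

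Of the other oligodendrocyte lineage genes, 1 of 8 tested in WT was lower, against 35.8% of all genes, and 0 higher, against 1.71%. With TMM factors 1 was lower and 2 higher, against 17.1% and 10.3%. The gene lower in WT was Bmp4, a ligand that restrains oligodendrocyte formation, at -0.88 (edgeR adjusted p = 0.0132), and in KO it changed by -0.04 (edgeR adjusted p = 0.967). In KO 1 of 11 was lower, against 5.49% of all genes, Sox8 at -1.45 (edgeR adjusted p = 0.0134), and 1 higher, against 4.13%, Sox6 at 0.92 (edgeR adjusted p = 0.0481). In WT Sox8 could not be tested, and Sox6 changed by 0.18 (edgeR adjusted p = 0.617), or by 0.67 with TMM factors (edgeR adjusted p = 0.0361). Nkx2-2, which promotes oligodendrocyte differentiation, changed by 0.04 in WT (edgeR adjusted p = 0.818) and -0.04 in KO (edgeR adjusted p = 0.961). Mal, a myelin gene, fell by 1.21 in WT (edgeR adjusted p = 0.0179) and changed by 0.03 in KO (edgeR adjusted p = 0.982). The WT calls of Bmp4 and Mal were lost without the same 3 WT libraries (edgeR adjusted p from 0.0526 to 0.081), and that of Bmp4 also with prorated counts (-0.19, edgeR adjusted p = 0.359) and DESeq2 (-0.30, DESeq2 adjusted p = 0.0764). In KO Sox8 was lost without E15.5 KO replicate 3 (edgeR adjusted p = 0.153), with an interval in most libraries (edgeR adjusted p = 0.0743) and with the replicate block (edgeR adjusted p = 0.0596). Sox6 was lost without any library but E12.5 KO replicate 3 (edgeR adjusted p from 0.0877 to 0.255), and with prorated counts, an interval in most libraries, a mean count of at least 50 and the replicate block (edgeR adjusted p from 0.0543 to 0.15).

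Some markers of other cells also differed between stages. In WT both endothelial genes tested were lower at E15.5, against 35.8% of all genes, Kdr (edgeR adjusted p = 0.0175) and Cldn5, at -0.98 (edgeR adjusted p = 0.017). In KO Kdr and Cldn5 changed by 0.17 and -0.14 (edgeR adjusted p = 0.845 and 0.87). With depth scaling 0 of 4 dorsal pallium genes and 0 of 1 neuronal gene tested in WT were called. Of the 6 MGE genes, Dlx1, Dlx2 and Lhx6 were lower and Sp8 higher in WT with depth scaling, against 35.8% of all genes lower and 1.71% higher. With TMM factors 0 were lower and 3 higher, against 17.1% and 10.3%. With 1 library left out, the WT calls of Sp8 and Dlx2 were each lost in 5 cases, that of Dlx1 in 3 and that of Lhx6 in 1. The WT call of Sp8 was also lost with prorated counts (0.27, edgeR adjusted p = 0.183). In KO Dlx1 and Dlx2 were lower with both scalings, against 5.49% of all genes with depth scaling and 7.69% with TMM factors. With TMM factors 2 MGE genes were higher in KO, against 8.82%. Dlx1 and Dlx2 share intervals, so they are not separate measurements. Kdr and Cldn5 were lost without the same 3 WT libraries (edgeR adjusted p from 0.0631 to 0.0776) and with DESeq2 (DESeq2 adjusted p = 0.11 and 0.0903). Their part in the changes at glial genes was not tested.

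Between genotypes, no glial gene passed the test at either stage. At E12.5, 0 of 7 glial genes tested were called by edgeR, against 4.04% of 3140 genes. An unadjusted edgeR p under 0.05 was reached by 1 of the 7 and by 905 of the 3140. With TMM factors 0 were called, against 1.5% of all genes, and with DESeq2 1 was, against 5.35%. Gfap differed most, at -1.11 (SE 0.41, unadjusted p = 0.0159, edgeR adjusted p = 0.122), which was 0.54 below the median of all genes of -0.57, and it was -0.56 with TMM factors (edgeR adjusted p = 0.237). Without E12.5 WT replicate 1 Gfap passed, at -1.32 (edgeR adjusted p = 0.0349), when 14.1% of all genes tested were called. It also passed without E12.5 KO replicate 3, at -1.29 (edgeR adjusted p = 0.0471), when 28.7% were called. Nfia was at 0.10 (SE 0.32, edgeR adjusted p = 0.809), 0.67 above the median. With DESeq2 it was called higher, at 0.70 (DESeq2 adjusted p = 0.0171), where the median of all genes was 0.02.

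The 5 oligodendrocyte lineage genes tested at E12.5 lay between -0.38 (Sox10) and -0.15 (Olig2) with depth scaling, and between 0.15 (Sox10) and 0.38 (Olig2) with TMM factors, with edgeR adjusted p of at least 0.248. Their direction thus depended on the scaling. TMM factors moved the median of all genes to -0.05, and the 127 calls, all lower, became 38 lower and 9 higher with TMM factors and 96 lower and 72 higher with DESeq2. The number called was 11 without E12.5 KO replicate 1, 477 without E12.5 WT replicate 1 and 902 without E12.5 KO replicate 3.

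**Figure D4:**
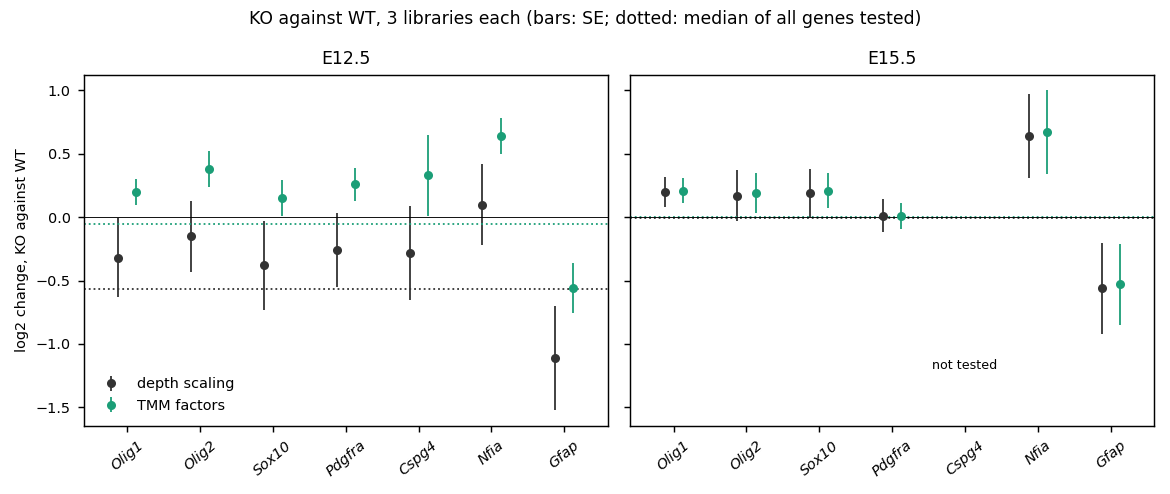
Log2 change in normalised count of KO against WT (vertical axis) at E12.5 and E15.5 for the 7 glial genes tested at E12.5, with depth scaling (grey) and TMM factors (green). Bars are SE and dotted lines the median of all genes tested. At E12.5 the 5 oligodendrocyte lineage genes lay below 0 with depth scaling and above 0 with TMM factors, and Gfap lay below 0 with both at both stages.

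At E15.5, 0 of 6 glial genes were called by edgeR, against 0.482% of 2695 genes. An unadjusted edgeR p under 0.05 was reached by 0 of the 6 and by 303 of the 2695. With TMM factors 0 were called, against 0.631% of all genes, and by DESeq2 0, against 2.78%. Nfia was at 0.64 (SE 0.33, edgeR adjusted p = 0.494) and Gfap at -0.56 (SE 0.36, edgeR adjusted p = 0.583). Olig1, Olig2, Sox10 and Pdgfra lay between 0.01 and 0.20. On simulated counts, 2-fold changes were recovered at 1% of changed genes at E12.5 and 31% at E15.5, so a 2-fold difference at a single gene would mostly have been missed within a stage.

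Over both stages 0 of 6 glial genes were called by edgeR, against 0.963% of 2492 genes. An unadjusted edgeR p under 0.05 was reached by 1 of the 6 and by 526 of the 2492. On simulated counts this comparison recovered 69% of 2-fold changes. Gfap was at -0.85 (SE 0.27, unadjusted p = 0.00714, edgeR adjusted p = 0.151) and Nfia at 0.33 (SE 0.21, edgeR adjusted p = 0.329), 0.62 above the median of -0.29. With TMM factors Nfia was called higher in KO, at 0.67 (edgeR adjusted p = 0.0383), as were 2.13% of all genes. The median of all genes was 0 with TMM factors and 0.01 with DESeq2, so higher and lower there are relative to the median gene. DESeq2 called 3 of the 6, against 8.71% of all genes, Nfia at 0.70 (DESeq2 adjusted p = 6.32e-05), Olig1 at 0.24 (DESeq2 adjusted p = 0.0148) and Gfap at -0.54 (DESeq2 adjusted p = 0.0243). Over all genes the split was 23 lower and 1 higher with depth scaling, 49 and 53 with TMM factors, and 113 and 104 with DESeq2. Leaving out a library gave 0 to 40 calls, and 0 without E12.5 WT replicate 3, E12.5 KO replicate 2 or E12.5 KO replicate 3.

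The genotype difference itself was compared between stages, and 0 of 6 glial genes were called by edgeR, against 0.562% of 2492 genes. An unadjusted edgeR p under 0.05 was reached by 0 of the 6 and by 686 of the 2492. DESeq2 called 0 glial genes, against 1.73% of all genes. Without E12.5 KO replicate 3, where 957 genes were called, Olig1 passed at 0.75 (edgeR adjusted p = 0.0338). The E12.5 genotype comparison and the WT stage comparison share the 3 E12.5 WT libraries.

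The difference between genotypes in the bases covered by intervals passed the exact permutation test at 0 of the 9 glial genes with an interval, against 1.47% of 8012 genes at p of at most 0.05. The window of Olig2 was covered in full in every library and that of Olig1 almost so (difference 0.022 kb). These 2 genes could therefore not have passed. Sox9 had 3.81 kb covered in KO and 1.88 kb in WT on average, a difference of 1.93 kb (exact two-sided permutation p = 0.11). Mbp had 3.17 and 1.83 kb (exact permutation p = 0.265), and without E12.5 WT replicate 2 its difference was 2.23 kb (exact permutation p = 0.02). Gfap had 5.10 and 6.79 kb (exact permutation p = 0.24). The smallest p this design allows is 0.005.

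The pattern of Olig2 over the 12 libraries, as log2 of depth-scaled counts less the library median, was most like that of Dlx1 (Pearson r = 0.93), Metap1d (0.92), Slc32a1 (0.91), Nr2e1 (0.90) and Dlx2 (0.90) among 2442 genes on other chromosomes. Dlx1, Dlx2 and Metap1d share intervals, so they are not separate measurements, and all values share the libraries' depth. Olig1 had r = 0.84 with Olig2.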

How the data were processed

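The 12 WT and KO libraries each had 1 deposited interval list, not pooled over replicates. Column 4 holds a whole-number count per interval and column 5 a score, both as deposited by the authors without normalization. The submitters' processing notes name cutadapt, Bowtie2, SAMtools, Picard, deepTools and SICER with builds GRCm38 and mm10, and give no role or parameter. Intervals lie on a 200 bp grid, so SICER-like islands were taken as called per library.

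Depth was recovered from the score of single-window intervals as the mean count per window, and is assumed to be proportional to reads. Counts of intervals overlapping a gene window were summed. Genes with an interval in every library compared and a mean count of at least 10 were tested with edgeR 4.0.16 (quasi-likelihood, Benjamini-Hochberg over all genes tested, threshold 0.05) in R 4.3.3. An interval that was not called adds 0 to its gene's sum, and a gene left with no interval in a library was not tested. DESeq2 1.42.0, TMM factors, prorated counts, merged regions, other filters, a replicate block and leaving out each library were the alternatives. Covered bases were tested over 400 assignments within stages. The count test was checked on simulated data with 200 changed genes.

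The members and gene lists were chosen with earlier results of these data known. From each list, up to 3 called genes per direction by size of change and up to 2 others with the highest mean counts were eligible to be named. Hes1 and Egfr were named after their values were seen. X-linked genes were left out. One result from the myelin list is not reported here. Scripts ran in Python 3.11.15 with pandas 2.3.3, numpy 2.4.6 and scipy 1.17.1, and figures used matplotlib 3.10.9.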

Additional observations from a re-analysis of the deposited data

How the results depend on the processing

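The numbers of genes called moved with the processing, and the cause was not tested. For KO against WT at E12.5 (127 genes) they were 47 with TMM factors, 223 with prorated counts, 348 over merged regions, 6 with an interval in most libraries, and 11 to 902 when 1 library was left out. At E15.5 (13) they were 75 with DESeq2, 136 over merged regions, 1 with an interval in most libraries, and 0 to 13 with 1 library left out. Over both stages (24) they were 102 with TMM factors, 217 with DESeq2, 48 with prorated counts, 158 over merged regions, 0 with an interval in most libraries, and 0 to 40 with 1 library left out. For the difference between stages (14) they were 6, 43, 25, 158 and 0 in the same order, and 0 to 957 with 1 library left out. For stage in WT (984) they were 577 with an interval in most libraries and 85 to 1445 with 1 library left out. For stage in KO (289) they were 496 with TMM factors, 572 with DESeq2, 435 over merged regions, 105 with an interval in most libraries, and 174 to 267 with 1 library left out. Covered bases gave 73 to 380 genes with 1 library left out.

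The replicate numbers did not consistently pair WT with KO libraries (same-number correlations of 0.23, 0.02 and 0.17 at E12.5 and -0.22, -0.20 and -0.35 at E15.5). Between stages the same-number correlations were 0.39, -0.01 and 0.30 in WT and 0.01, -0.04 and -0.03 in KO. Different-number correlations between stages in WT ran from -0.40 to 0.28. With the replicate block 305 genes were called at E12.5, 0 at E15.5, 4 over both stages and 25 for the difference between stages. For stage 1067 were called in WT and 217 in KO.

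Directions that turned were mostly those of scaling. At E12.5, KO against WT was, with TMM factors and DESeq2, 0.20 and 0.26 at Olig1, 0.38 and 0.43 at Olig2, 0.15 and 0.21 at Sox10, 0.26 and 0.31 at Pdgfra and 0.33 and 0.40 at Cspg4, and 0.08 at Olig1 with prorated counts. At E15.5 Pdgfra was -0.01 with DESeq2 and -0.23 with prorated counts. Over both stages they were 0.22 and 0.24 at Olig1, 0.19 and 0.18 at Sox10 and 0.14 and 0.16 at Pdgfra. With prorated counts Olig1 was 0.10, Olig2 -0.04 and Sox10 0.05, and over merged regions Olig1 was 0.02. The difference between stages was -0.06 and -0.08 at Olig1, -0.25 and -0.28 at Olig2, -0.02 and -0.04 at Sox10, -0.31 and -0.34 at Pdgfra, -0.04 and -0.06 at Nfia and -0.05 and -0.07 at Gfap. Sox10 with stage in WT was 0.14 and 0.25. With prorated counts the stage change in KO was 0.05 at Bmp4 and -0.01 at Mal. With lists of equal length the covered difference was -0.0333 kb at Pdgfra and -0.10 kb at Cspg4.

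With 1 library left out, signs turned within these ranges: Cspg4 at E12.5 -0.51 to 0.10, Pdgfra at E15.5 -0.12 to 0.08, and over both stages Olig1 -0.13 to 0.03, Olig2 -0.06 to 0.10 and Sox10 -0.20 to 0.04. For stage in KO they were Olig1 -0.36 to 0.02, Notch1 -0.41 to 0.11, Bmp4 -0.17 to 0.10, Mal -0.18 to 0.38 and Cldn5 -0.35 to 0.13, and in WT Sox6 -0.03 to 0.45. For covered bases they were Sox10 -1.58 to 0.318 kb, Pdgfra -0.10 to 0.467 kb, Cspg4 -0.117 to 1.20 kb and Nfia -1.72 to 0.983 kb. Cspg4, Mbp and Sox9 lacked an interval in libraries with depths of 0.0751 to 0.216, and the part of depth there was not tested.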

Other observations

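Nes, which encodes the intermediate filament nestin of neural progenitors, was the only gene of the 4 glial lists called between genotypes at E12.5. Its normalised counts were 17.7, 2650 and 62.2 in WT and 20.8, 32.4 and 43.8 in KO, so 1 WT library stood far above the other 5. In that library, E12.5 WT replicate 2, an interval of 28.4 kb reached Nes and also overlapped the window of Bcan. Over all libraries Nes changed by -4.81 (SE 1.20, edgeR adjusted p = 0.0347), by -4.10 with TMM factors (edgeR adjusted p = 0.26), and by -0.41 (edgeR adjusted p = 0.651) without E12.5 WT replicate 2, and over merged regions it was -0.20 (edgeR adjusted p = 0.5).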
